A study of Bos taurus with 18 samples.

Results

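HSPA1A (ENSBTAG00000025441), HSPH1 (ENSBTAG00000005012), HSPB8 (ENSBTAG00000001303), DNAJA1 (ENSBTAG00000016265), BAG3 (ENSBTAG00000013641) and ZFAND2A (ENSBTAG00000007402) are the heat shock and co-chaperone genes described here. They were taken by name from the list of diet-responsive genes that accompanies the paper and that pairs Ensembl identifiers with symbols. They are 6 of the 24616 genes in the deposited table. All 6 are among the 13284 genes tested, that is, with a level above 1 CPM (the reads of a gene relative to all reads on annotated genes of a library) in 3 or more of the 6 cows of a diet. That list was made from the same cows, so a difference between diets in these genes is not independent evidence of a dietary effect. Rumen epithelium of 18 lactating Holstein cows was sequenced, 6 on each of 3 total mixed rations whose main forage was alfalfa hay (AH), corn stover (CS) or rice straw (RS). No cow was without a forage diet, so AH, CS and RS serve as references for each other. By the study's design, AH and CS differ mainly in nutrient supply, RS and CS mainly in particle size, and AH and RS in both. The split is not clean in the paper's own measurements. AH and CS also differed in their coarse particle fractions, and RS and CS in ruminal butyrate and ammonia. The tissue was sampled once from each cow, after slaughter. The labels name the rumen epithelium as the tissue, although their extraction text mentions rectal tissue. The labels and the paper's methods also differ on whether the library kit was one for total RNA or for mRNA. The paper, which names the mRNA kit, also describes depletion of rRNA. The epithelial identity was not checked here, because 0 of 14 keratinocyte markers could be paired with an identifier.

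The heat shock response is the rapid and reversible transcription of chaperone genes that follows heat, oxidants, metals, ischaemia or other conditions in which proteins unfold, and its main activator is the heat shock factor HSF1. HSPA1A is the stress-inducible HSP70, which binds exposed hydrophobic stretches of client proteins in a cycle driven by ATP. DNAJA1 is an HSP40 (J-domain) protein that delivers clients and starts ATP hydrolysis, and HSPH1 (HSP110) exchanges the nucleotide so that the client is released. HSPB8 is a small heat shock protein that holds unfolded clients without ATP. BAG3 bridges HSPB8 and HSP70 and directs their clients to autophagy. ZFAND2A (AIRAP) is an arsenite-inducible zinc finger protein that associates with the proteasome. The rumen epithelium is a stratified, keratinised lining that absorbs volatile fatty acids and meets the acidity, osmotic load and abrasion of the rumen content.

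The libraries held 16099131 to 32252177 reads on genes, and every library value was a whole number of reads at a tolerance of 0.02. HSPA1A had 4816 to 187943 reads per cow. ZFAND2A, the member with the fewest reads, had 35 to 2063. Its lowest count of 35 reads, in RS 6, gave 1.57 CPM with an exact Poisson 95% interval of 1.10 to 2.19, and this interval covers counting error only. Differences of several fold between cows were therefore larger than the counting error for every member. CS 2 and RS 5 (the second CS and the fifth RS cow) stood apart in these genes, as described next. The main results below that rest on them are given with and without them. CS 2 had the fewest reads of the 18 libraries, and RS 5 had the highest share of reads in its 10 most abundant genes, 24.0%. The TMM scaling factors of both were the lowest of all, 0.782 in CS 2 and 0.807 in RS 5. In CS 2, 431 genes were more than 4-fold below the median of the other cows, as were 431 in CS 1 and 284 in RS 5, against 4 to 163 in the other 15 cows. The levels given below for each cow are not rescaled by these factors, and division by such a low factor would raise a level. Ratios between diets were also computed after such scaling, as given further below. The part of library composition in the levels of single cows was not tested further.

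HSPA1A, the inducible HSP70, reached 6199 CPM in CS 2 and 9861 CPM in RS 5. The other 16 cows lay between 223 and 1766 CPM, with a median of 815 CPM. By diet, the lowest, median and highest cows had 348, 1112 and 1766 CPM in AH, 262, 827 and 6199 CPM in CS, and 223, 643 and 9861 CPM in RS. AH 1 came next after these cows, closely followed by AH 5 at 1706 CPM. The 3 diets overlapped over most of their range.

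HSPH1, the nucleotide exchange factor of HSP70, reached 2224 CPM in CS 2 and 1798 CPM in RS 5. The other 16 cows had 90.9 to 689 CPM, with a median of 163 CPM. The lowest, median and highest cows had 107, 297 and 488 CPM in AH, 135, 239 and 2224 CPM in CS, and 90.9, 148 and 1798 CPM in RS. A second tier followed the pair of extreme cows, made up of CS 4 at 689 CPM and RS 2 at 566 CPM, both above all 6 AH cows. HSPA1A showed no such tier, since CS 4 and RS 2 had 624 and 672 CPM of it, below the median of the 16 cows.

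HSPB8, the small heat shock protein, had 649.9 CPM in CS 2 and 598 CPM in RS 5. Its other 16 cows were the most even of the 6 genes, from 29.5 to 153 CPM with a median of 46.9 CPM. The lowest, median and highest cows had 36.8, 68.9 and 153 CPM in AH, 38.7, 61.1 and 649.9 CPM in CS, and 29.5, 44.4 and 598 CPM in RS. AH 1, at 153 CPM, was the third cow.

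BAG3, which joins HSPB8 to HSP70, had 1077 CPM in CS 2 and 783 CPM in RS 5, while the other 16 cows had 30.7 to 221 CPM with a median of 47.7 CPM. Its lowest, median and highest cows had 35.6, 76.7 and 221 CPM in AH, 37.1, 57.8 and 1077 CPM in CS, and 30.7, 47.7 and 783 CPM in RS. AH 1 was again the third cow, and CS 4 (128 CPM) and RS 2 (112 CPM), the second tier of HSPH1, came next.

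ZFAND2A, the proteasome-associated zinc finger protein, was at 128 CPM in CS 2, 77.5 CPM in RS 5 and 26.3 CPM in AH 1. The other cows had 1.22 to 8.29 CPM. The lowest, median and highest cows had 1.22, 5.24 and 26.3 CPM in AH, 2.11, 4.25 and 128 CPM in CS, and 1.57, 2.62 and 77.5 CPM in RS. Within each diet, 1 cow thus stood above the other 5.

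DNAJA1, the HSP40 partner of HSP70, followed another order. Its highest cows were AH 2 at 96.4 CPM and CS 1 at 86.0 CPM, and AH 5 came next at 55.4 CPM. CS 2 had 40.9 CPM and RS 5 had 35.8 CPM, which placed them at ranks 4 and 7 of 18. The lowest, median and highest cows had 7.20, 40.0 and 96.4 CPM in AH, 6.31, 22.8 and 86.0 CPM in CS, and 6.51, 12.8 and 35.8 CPM in RS. In AH, 5 cows lay between 35.8 and 96.4 CPM and AH 3 at 7.20 CPM. Within RS, RS 5 was the highest cow for DNAJA1 as well, by 35.8 against 17.6 CPM in RS 6.

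**Figure D1:**
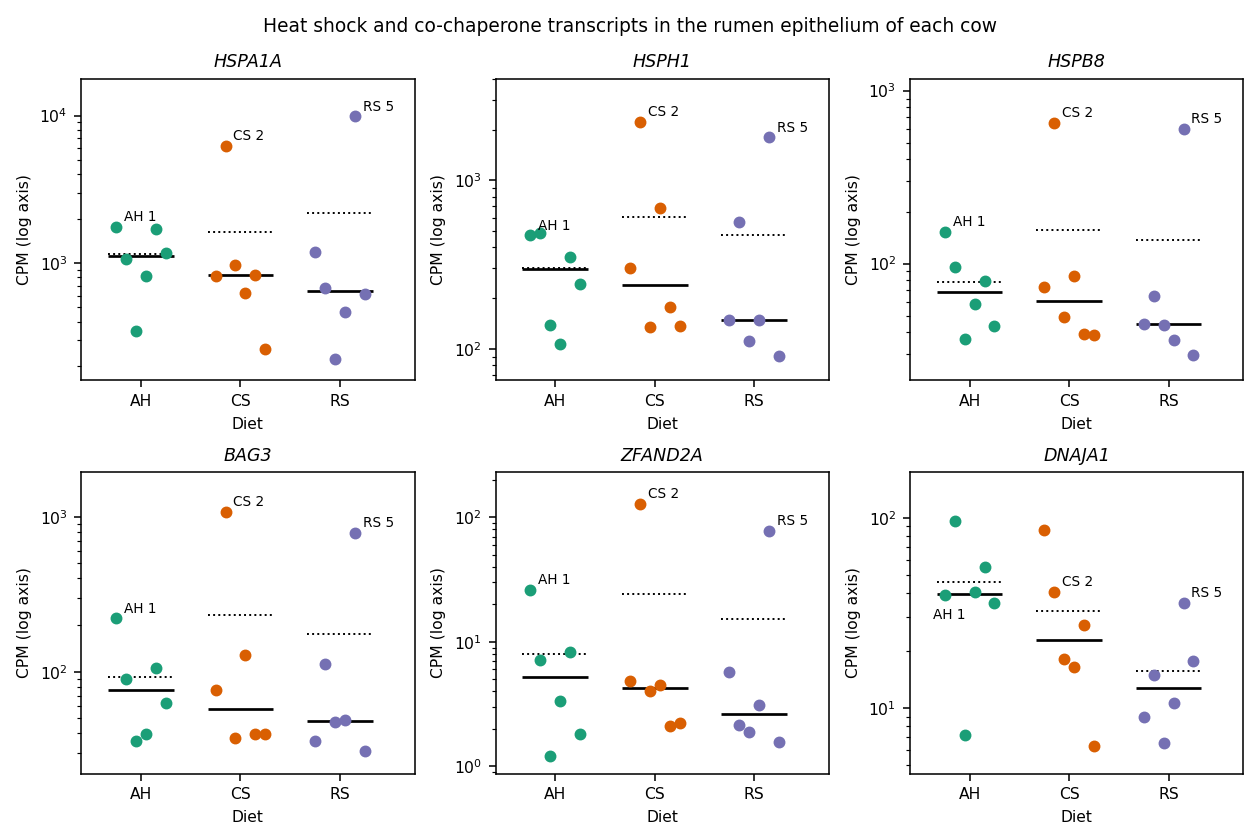
CPM of each gene (log axis) in every cow of the AH, CS and RS diets (6 cows each), with the median of a diet as a solid line and its mean as a dotted line. In 5 genes CS 2 and RS 5 lie above all other cows and lift the CS and RS means above the medians, whereas in DNAJA1 the highest cows are AH 2 and CS 1.

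The 5 genes other than DNAJA1 were thus high in the same cows. Relative to the median of the other 16 cows, ZFAND2A was 39.7-fold higher in CS 2, BAG3 22.6-fold, HSPB8 13.9-fold, HSPH1 13.7-fold and HSPA1A 7.61-fold. In RS 5 the order was ZFAND2A at 24.0-fold, BAG3 at 16.4-fold, HSPB8 at 12.8-fold, HSPA1A at 12.1-fold and HSPH1 at 11.1-fold. DNAJA1 came last in both, at 2.29-fold in CS 2 and 2.01-fold in RS 5. The order of ZFAND2A, BAG3 and HSPB8 was shared by both cows, whereas HSPA1A and HSPH1 changed places. The steps between HSPB8 and HSPH1 in CS 2, and between HSPB8, HSPA1A and HSPH1 in RS 5, were small, and with 1 cow each no error between cows can be attached to them. These are descriptions, because both cows were singled out for their high levels of these genes.

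Between CS 2 and RS 5, HSPA1A differed in the other direction from the rest. The CPM in CS 2 over that in RS 5 was 0.629 for HSPA1A and 1.09 (HSPB8) to 1.65 (ZFAND2A) for the other 5 genes. HSPA1A was accordingly the only gene of the 6 with its highest value in RS 5. AH 1 showed the same leading order at a lower height, with ZFAND2A at 8.15-fold, BAG3 at 4.63-fold, HSPB8 at 3.27-fold and HSPH1 at 2.90-fold over the median of the 16 cows. HSPA1A and DNAJA1 were close to each other there, at 2.17-fold and 2.19-fold. AH 1 was at rank 3 of the cows for ZFAND2A, BAG3, HSPB8 and HSPA1A, but only at rank 6 for HSPH1 and DNAJA1.

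**Figure D2:**
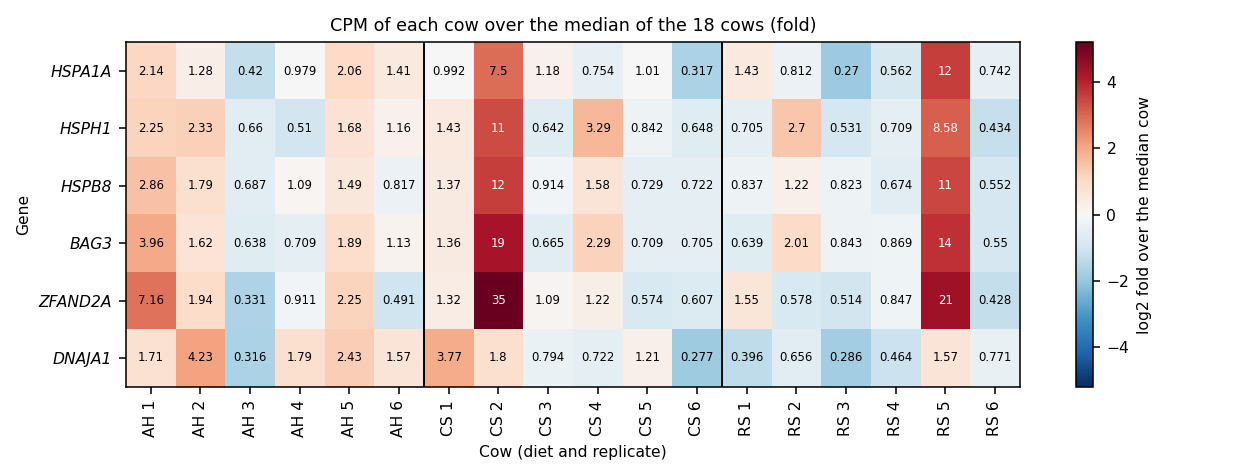
CPM of each gene (rows) in each cow (columns) divided by the median of that gene over the 18 cows. The fold is printed in each cell and coloured on a log2 scale, and CS 2 and RS 5 stand out in every row except DNAJA1, with AH 1 as a weaker column led by ZFAND2A.

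Among all genes tested, the folds of 5 members in CS 2 and RS 5 were at the upper end. Genes were ranked by the lower of their folds in both cows, with 0.5 CPM added to each value. ZFAND2A (20.9-fold), BAG3 (16.3-fold), HSPB8 (12.6-fold) and HSPH1 held ranks 1 to 4 of 13284, and HSPA1A (7.60-fold) was at rank 6. DNAJA1, at 1.98-fold, was at rank 148. In all, 25 genes (0.188%) were more than 4-fold above the median in both cows, and 5 of them were members. CS 2 and RS 5 were both above every other cow in 335 genes (2.52%), again with 5 members and without DNAJA1. Since the cows were picked by these genes, the ranks describe the 2 cows and test nothing. Of the 67 other genes that could be named, 1 was more than 4-fold up in both cows, the signal recognition particle RNA listed as Metazoa_SRP (45.1-fold in CS 2 and 4.13-fold in RS 5). SAA1, an acute-phase protein, was at 3.58-fold and 2.45-fold. Of the markers of other cell types, 2 could be paired with identifiers. AIF1, expressed by macrophages, was at 1.53-fold in CS 2 and 1.22-fold in RS 5, and FBN1, a fibrillin of connective tissue, at 0.415-fold and 0.721-fold. Further named genes of macrophages and connective tissue, chosen after their values were seen, are given next. They were below 1-fold in CS 2 except for CILP, and went both ways in RS 5. Of macrophage genes, CD5L was at 0.266-fold and 0.713-fold and Cd209f at 0.206-fold and 0.394-fold. Of connective tissue genes, CILP was at 1.88-fold and 1.54-fold, SCARA5 at 0.197-fold and 2.17-fold, and PCOLCE2 at 0.622-fold and 2.31-fold. Others were below 1-fold in both cows. DPT was at 0.460-fold and 0.993-fold, MGP at 0.404-fold and 0.974-fold, and SERPINF1 at 0.355-fold and 0.729-fold. EFEMP1 was at 0.274-fold and 0.977-fold, and CRISPLD2 at 0.409-fold and 0.813-fold. The part of other cell types in these levels was not tested further, and in bulk tissue fewer cells of a type cannot be told apart from less RNA per cell.

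**Figure D3:**
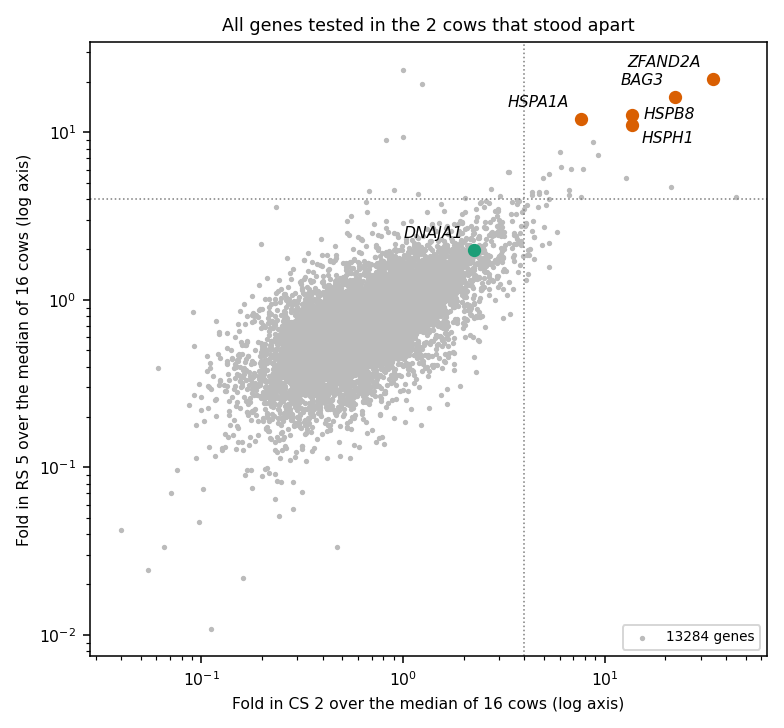
Fold of each of the 13284 genes tested in CS 2 (x, log axis) and RS 5 (y, log axis) over the median of the other 16 cows, with 0.5 CPM added and dotted lines at 4-fold. ZFAND2A, BAG3, HSPB8, HSPH1 and HSPA1A lie at the upper right end of the cloud and DNAJA1 within it.

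Variation among cows was high for all 6 genes. Over 18 cows the SD of log2(CPM + 0.5) was 1.77 for ZFAND2A, 1.49 for BAG3, 1.38 for HSPA1A, 1.37 for HSPH1, 1.28 for HSPB8 and 1.20 for DNAJA1, against a median of 0.479 over all genes tested. Between 98.3% (DNAJA1) and 99.7% (ZFAND2A) of genes had a lower SD. Without CS 2 and RS 5 the order changed. DNAJA1 then had the highest SD of the 6, 1.25, which exceeded that of 98.7% of genes, and HSPB8 had the lowest, 0.63, which exceeded that of 79.4%. The median over all genes was 0.436 in these 16 cows. DNAJA1 thus varied among the ordinary cows as widely as with the 2 extreme cows, over a 15.3-fold range, while HSPB8 varied over 5.19-fold.

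Whether the genes varied together apart from the extreme cows was examined in the other 16 cows, because CS 2 and RS 5 formed a separate cluster in 5 of the genes and correlations were therefore not tested over 18 cows. All 15 pairs were positively correlated, with Pearson's r from 0.46 to 0.91 and a median of 0.61. As background, 22.5% (BAG3) to 49.9% (HSPA1A) of all genes had a positive r with a given member. P-values came from two-sided permutation tests with 100000 resamples and were adjusted over all 13283 partner genes. HSPH1 and BAG3 formed the closest pair (r = 0.91, permutation p = 1e-05, the smallest that the resamples can give, adjusted p = 0.0332; Spearman's rho = 0.86, permutation p = 1e-05, adjusted p = 0.0221, both from the side of HSPH1). From the side of BAG3 the adjusted p was 0.133 for r and 0.247 for rho. Partners with a positive r and an adjusted p under 0.05 numbered 7 for HSPH1 (0.0527% of genes), BAG3 among them, and 0 for the other members. Because the permutation p has a floor, these counts also depend on the number of resamples. Without RS 2 and CS 4, the cows farthest from the median of HSPH1, r of HSPH1 and BAG3 was 0.90, and with the diet means removed it was 0.91.

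HSPB8 was close to BAG3 (r = 0.90, rho = 0.77) and to ZFAND2A (r = 0.85, rho = 0.80). BAG3 had the highest r of all genes with HSPB8, HSPH1 the highest with BAG3, and HSPB8 the highest with ZFAND2A. The adjusted p-values of these pairs were 0.199 for HSPB8 and BAG3 and 0.266 for HSPB8 and ZFAND2A in permutation tests from the side of HSPB8, so neither passed the threshold. Without AH 1 and AH 2, the cows farthest from the median of HSPB8, r fell from 0.85 to 0.69 for ZFAND2A and from 0.90 to 0.84 for BAG3. The pair of HSPH1 and HSPB8 had r = 0.80 (permutation adjusted p = 0.109 from the side of HSPH1 and 0.339 from that of HSPB8). ZFAND2A correlated with BAG3 at r = 0.70, and this relation leaned on AH 1 and AH 5, without which r was 0.37.

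HSPA1A was more loosely tied to the small heat shock protein, HSP110 and BAG3 in these 16 cows. Its r was 0.46 with HSPH1, 0.47 with BAG3 and 0.58 with HSPB8, and their ranks among all genes by r were 1287, 1101 and 333. It was closer to DNAJA1, its J-domain partner, at r = 0.72 (rho = 0.68, permutation p = 0.0017, adjusted p = 0.405) and to ZFAND2A at r = 0.69 (rho = 0.66, adjusted p = 0.434), both from the side of HSPA1A. DNAJA1 in turn had its highest r among the members with HSPA1A, and the values with the other 4 genes were 0.48 to 0.61. Without CS 6 and RS 3, the cows farthest from the median of HSPA1A, r with DNAJA1 was 0.59. Without CS 1 and AH 2, the cows farthest from the median of DNAJA1, it was 0.82, and with the diet means removed 0.65. The differences between the correlations of different pairs were not tested.

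**Figure D4:**
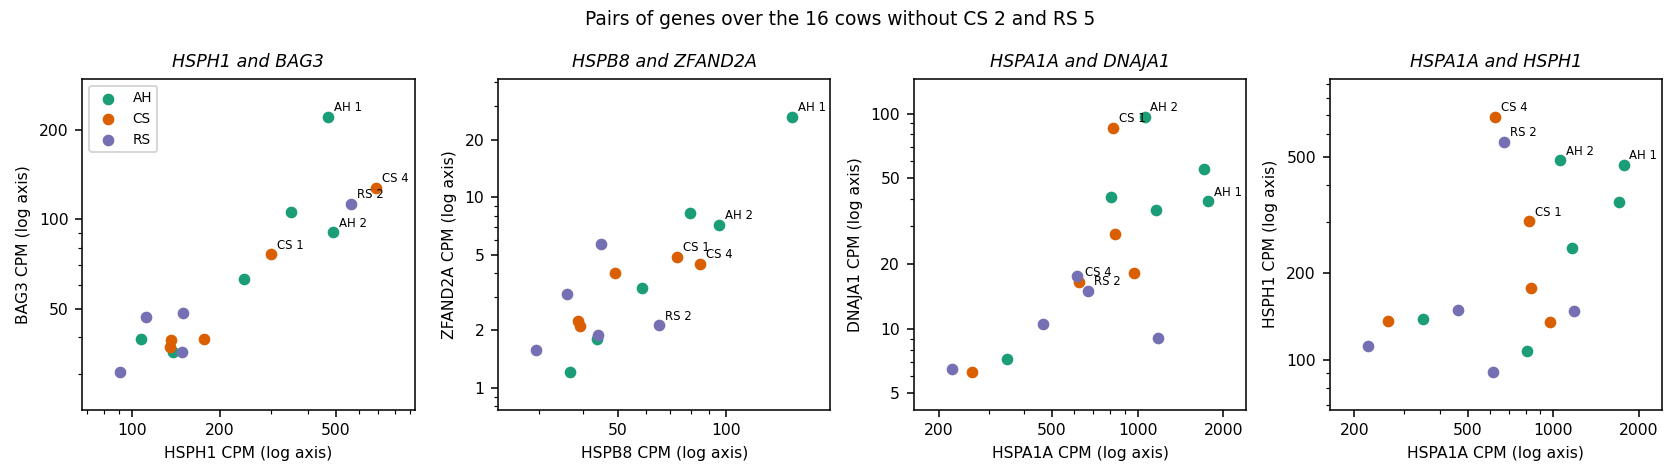
CPM of 4 pairs of genes (log axes) in the 16 cows without CS 2 and RS 5, coloured by diet, with 5 cows labelled in each panel. HSPH1 and BAG3 rise together (r = 0.91), as do HSPB8 and ZFAND2A (r = 0.85) and HSPA1A and DNAJA1 (r = 0.72), whereas CS 4 and RS 2 are high in HSPH1 and not in HSPA1A (r = 0.46).

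The genes closest to each member over all 18 cows were ranked by Spearman's rho. These values include CS 2 and RS 5 and are a description. BAG3 had HSPH1 as its closest gene (rho = 0.90). HSPB8 had ZFAND2A at rank 2 (rho = 0.86) and BAG3 at rank 5 (rho = 0.84), and ZFAND2A had HSPB8 at rank 3. Of the genes closest to HSPA1A, HSPH1 and DNAJA1, none of the first 5 could be named from the sources used here.

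The dietary comparisons ask whether the forage changed the level of these genes. DE genes were those with an adjusted p under 0.05 (limma on log2(CPM + 0.5), Benjamini-Hochberg over all genes tested) and a ratio of mean CPM over 2-fold. In each comparison of AH with another diet, 0 of the 6 genes were called, against 1 gene (0.00753%) of 13284, and 0 genes (0.0%) were called between RS and CS. At an unadjusted limma p under 0.05, 0 of the 6 passed between AH and CS (1.87% of all genes), 1 between AH and RS (1.79%) and 0 between RS and CS (1.29%). Without CS 2 and RS 5, 0, 2 and 0 of the 6 passed in that order, beside 244, 282 and 183 of all 13284 genes. The limma adjusted p was 1.00 for every member in every comparison. By the two-sided exact permutation test of 6 against 6 cows, which cannot go below 0.0022, the same counts of 0, 1 and 0 had an unadjusted p under 0.05, where 1.90%, 2.26% and 1.81% of all genes did. The paper, in contrast, lists HSPB8 and BAG3 as DE genes in both AH comparisons, with lower levels in AH. Its quantitative PCR also found HSPB8 and BAG3 higher in RS than in AH. Against CS, the PCR found HSPB8 lower in AH, and BAG3 tended to be lower. The paper also has all 6 members on its list of DE genes, and it called many more genes in each comparison than were called here. The disagreement with the counts given here thus extends beyond HSPB8 and BAG3, and its reason was not tested.

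By mean CPM, 5 of the 6 genes were lower in AH than in CS, as were 48.6% of all genes. The mean of HSPA1A was 1142 ± 540 CPM (SD, n = 6) in AH, 1619 ± 2257 CPM in CS and 2169 ± 3781 CPM in RS. That of BAG3 was 92.4 ± 68.6 CPM in AH, 233 ± 415 CPM in CS and 176 ± 299 CPM in RS, and the SDs of CS and RS exceeded their means in each of the 5 genes. The log2 ratios in AH vs. CS were -0.50 ± 0.87 (SE) for HSPA1A, -1.02 ± 0.85 for HSPH1, -1.33 ± 1.14 for BAG3 and -1.60 ± 1.41 for ZFAND2A. HSPB8 averaged 77.9 ± 43.0 CPM in AH and 156 ± 243 CPM in CS. The ratio was over 2-fold in 4 of the 6 genes, which 1.67% of all genes reached. The smallest exact permutation p of any member was 0.429.

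Without CS 2 and RS 5, all of these log2 ratios changed sign, to 0.70 for HSPA1A, 0.06 for HSPH1, 0.45 for HSPB8, 0.53 for BAG3 and 1.18 for ZFAND2A, so that 0 of the 6 genes were lower in AH. A change of sign occurred in 17.9% of all genes. The ratio of medians, which uses all cows, was also above 1 for all 6 genes, and means and medians pointed in opposite directions for 21.8% of all genes. How many of all genes were higher in AH by medians, or without the 2 cows, was not counted. The median log2 ratio over the 6 genes was -1.01 with all cows and 0.55 without the 2 cows, against 0.01 and -0.04 over all genes. The smallest exact permutation p of the 6 genes without these cows was 0.232.

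In AH vs. RS the same held. The log2 ratios were -0.93 ± 1.06 (SE) for HSPA1A, -0.67 ± 0.89 for HSPH1, -0.81 ± 1.03 for HSPB8, -0.93 ± 1.09 for BAG3 and -0.93 ± 1.36 for ZFAND2A, so that 5 of the 6 genes were lower in AH by the mean, against 44.7% of all genes. The ratio was over 2-fold in 1 of the 6, DNAJA1, and in 1.60% of all genes. Without CS 2 and RS 5 they were 0.86, 0.49, 0.83, 0.75 and 1.48 in that order. The sign changed in 17.9% of all genes, and means and medians differed in direction in 22.4%. The median over the 6 genes went from -0.87 to 0.84, against 0.02 and -0.02 over all genes. Exact permutation p-values of these 5 genes without the cows were 0.102 (HSPB8) to 0.307 (HSPH1), with adjusted p-values of 1.00.

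In RS vs. CS both diets held 1 extreme cow. The log2 ratios of the 5 genes were 0.42 ± 1.31 for HSPA1A and between -0.19 ± 1.34 (HSPB8) and -0.67 (ZFAND2A) for the others, and none exceeded its SE. Of the 6 genes, 5 were lower in RS (55.5% of all genes), and 1, DNAJA1, by over 2-fold (1.45% of all genes). Without both cows, all 6 genes were lower in RS, with log2 ratios from -0.16 ± 0.44 (HSPA1A) to -1.40 ± 0.71 (DNAJA1), and the sign changed in HSPA1A and in 10.6% of all genes. By medians all 6 were lower in RS as well, and means and medians differed in direction for 19.1% of all genes. The shares of all genes lower in RS by medians, or without both cows, were not counted. The median log2 ratio over the 6 genes was -0.38 with all cows and -0.34 without both, against -0.03 and -0.03 over all genes. The smallest exact permutation p without the cows was 0.175.

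**Figure D5:**
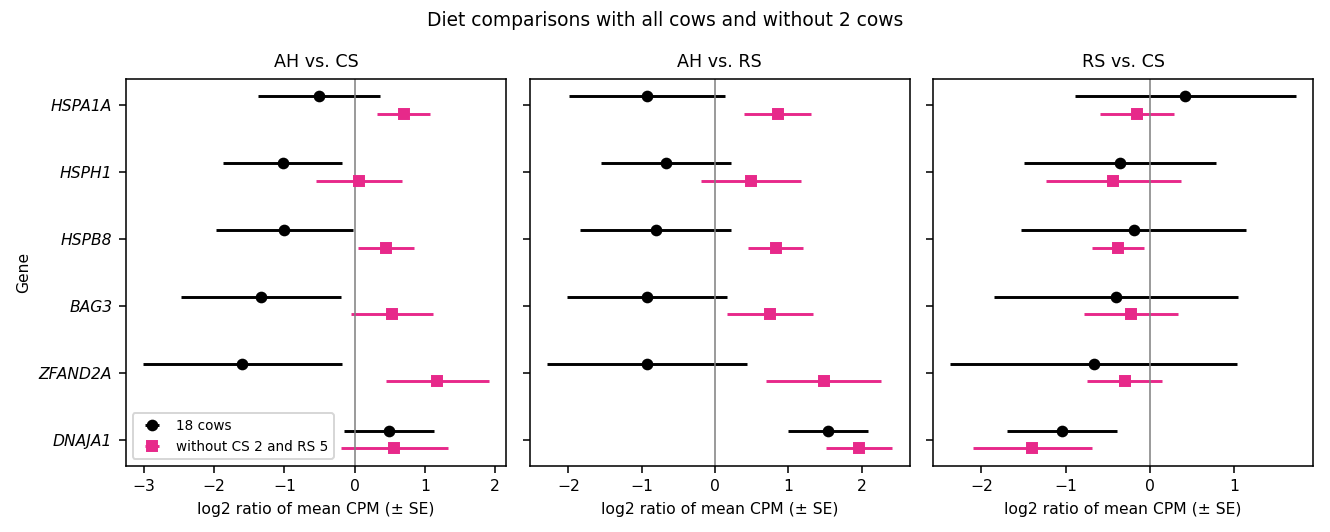
Log2 ratio of mean CPM (± SE from the spread between cows) of each gene in the 3 dietary comparisons, with all 18 cows (black circles) and without CS 2 and RS 5 (pink squares). In both AH comparisons 5 genes move from below 0 to above 0 when these cows are left out, while DNAJA1 is above 0 either way.

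DNAJA1 was the only gene of the 6 with a higher mean in AH than in CS and RS when all cows were used. By medians, and without CS 2 and RS 5, all 6 genes were higher in AH. The shares of all genes in each direction by medians, or without these cows, were not counted. The mean of DNAJA1 was 45.8 ± 29.4 CPM in AH, 32.5 ± 28.7 CPM in CS and 15.7 ± 10.6 CPM in RS (SD, n = 6 each), and the medians had the same order. In AH vs. RS, 4 of 6 AH cows were above all RS cows, and AH 3 and AH 6 were within the RS range. The log2 ratio was 1.54 ± 0.55 (SE) with all cows and 1.97 ± 0.45 without CS 2 and RS 5. The exact permutation p was 0.0476 with all cows and 0.0281 without them, and the adjusted p over all genes was 1.00 in both. The exact test of 6 against 6 cows cannot go below 0.0022, which keeps its adjusted p high over so many genes. By limma, DNAJA1 was not a DE gene with or without these cows. At an exact permutation p under 0.05 with all cows, 1.32% of all genes were higher in AH than in RS. In AH vs. CS the log2 ratio was 0.49 ± 0.64 (exact permutation p = 0.429). Between RS and CS it was -1.05 ± 0.65 (exact permutation p = 0.214). DNAJA1 had been listed for its differences in RS, so these values are no independent evidence.

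Whether DNAJA1 responded differently from each other member was tested on the difference of their log2(CPM + 0.5) in each cow. In AH vs. RS this difference was higher in AH by 1.22 ± 0.60 (SE) against HSPA1A, 1.34 ± 0.62 against HSPH1, 1.33 ± 0.59 against HSPB8, 1.44 ± 0.67 against BAG3 and 1.35 ± 0.80 against ZFAND2A. The exact permutation p was 0.0476 against HSPB8 and 0.0606 to 0.121 against the others. With 15 such differences tested over the 3 comparisons, the lowest adjusted p was 0.284 (exact permutation tests with Benjamini-Hochberg adjustment), so a different response of DNAJA1 was not established. Without CS 2 and RS 5 the differences in AH vs. RS were 0.80 (HSPA1A) to 1.05 (BAG3), with exact permutation p-values of 0.102 (HSPB8) to 0.240 (ZFAND2A). In AH vs. CS they were 0.48 (HSPA1A) to 0.98 (HSPH1) with all cows and 0.088 (HSPA1A) to 0.59 (HSPH1) without CS 2 and RS 5, and that against ZFAND2A went from 0.92 to 0.23. Between RS and CS they were -0.73 to -0.36 with all cows and -0.73 to -0.45 without both. The exact permutation p was at least 0.229 in these comparisons.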

How the data were processed

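The authors aligned 100-base paired reads of each cow to the bovine genome UMD 3.1 with TopHat2, removed reads with several mapping hits or more than 2 mismatches, used HTSeq to count the rest for each Ensembl gene, and deposited CPM values, in which the total over annotated genes is the same for each cow. Removal of reads with several hits makes the level of a gene with a near-identical copy, such as HSPA1A, uncertain. The strand setting of the counting is not given in the sources used here. Whole reads could be recovered from 100% of the deposited CPM (tolerance 0.02) and were used for alternatives only. The limit that a count of 0 allows, 3 reads, was 0.0930 to 0.186 CPM, and no member was at 0 in any cow. Pairs of cows of one diet differed by far more than sampling noise (chi-square per degree of freedom 44.1 to 349), so all 18 were separate replicates, and no batch is named.

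Genes were tested with limma 3.58.1 in R 4.3.3 with an intensity trend on log2(CPM + 0.5) over all 18 cows. The ratio of arithmetic mean CPM was the effect, with its SE from the spread between cows. Exact permutation tests and correlations were computed with scipy 1.17.1 and numpy 2.4.6. Outliers within a diet were found with Dixon's ratio on CPM without a log. Alternatives used edgeR 4.0.16, DESeq2 1.42.0, other pseudocounts, filters, scalings and samples. The fits were tested on simulated data. The members and lists were chosen with earlier results of these data known. The genes named are the 6 members, for each member the 5 genes of highest Spearman's rho where a symbol could be paired, and genes said to be chosen after their values were seen. Symbols came from the paper's supplementary list (73 names). Of 180 symbols in lists of chaperone, stress and cell type marker genes, 2 (1.11%) could be paired, AIF1 and FBN1, so the lists are not described. Coordinates and sequences are not used here.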

Additional observations from a re-analysis of the deposited data

Results flagged for a closer look

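Of 18 groups of 6 cows (6 genes in 3 diets), 11 held a cow set apart by Dixon's ratio on CPM without a log. Its gap to the nearest cow exceeded the 95% critical share of the range of its diet. Chance flags about 1 in 20 groups of normally distributed values. That rate does not hold for these CPM values, which were skewed to the high side. The same gaps on a log scale were not tested. The same cow, CS 2, was flagged for HSPA1A (6199 CPM), HSPH1 (2224 CPM), HSPB8 (649.9 CPM), BAG3 (1077 CPM) and ZFAND2A (128 CPM). RS 5 was flagged for the same 5 genes, at 9861 CPM of HSPA1A, 1798 CPM of HSPH1, 598 CPM of HSPB8, 783 CPM of BAG3 and 77.5 CPM of ZFAND2A. In AH, AH 1 was flagged for ZFAND2A at 26.3 CPM. The gaps of HSPH1 were the smallest of the flagged ones in CS and RS except for that of AH 1, at 0.735 and 0.722 of the range. No cow was flagged for DNAJA1. The genes of a cow come from 1 library, so the flags are not independent of each other.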

How the results depend on the processing

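In both AH comparisons 1 gene was called, and between RS and CS 0 genes. The counts were 5 and 7 in the AH comparisons with DESeq2, 0 in AH vs. CS with only the 12 cows compared, 1 in RS vs. CS without a filter, and, over the fits that left out 1 cow, 1 to 2 (AH vs. CS), 1 to 5 (AH vs. RS) and 0 to 6 (RS vs. CS), with the highest counts of AH vs. RS and RS vs. CS without RS 6. The same-numbered cows of different diets are not stated to be pairs. Their deviations correlated at r = -0.48 to 0.71, 12 of 18 pairs were over 0.1, and 5 of 18 cows were closest to their own number, and with the replicate block 1 gene was called in AH vs. CS, 2 against RS and 0 between RS and CS. The count of members called was 0 in every setting run. Other scalings, pseudocounts and filters changed the sign of no member's ratio.

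The signs did depend on the mean as the measure and on CS 2 and RS 5. With the limma coefficient, HSPA1A was at 0.11 in AH vs. CS, 0.18 against RS and -0.073 between RS and CS, and HSPH1, HSPB8 and ZFAND2A were at 0.059, 0.065 and 0.046 in AH vs. RS. By the ratio of medians, HSPA1A, HSPH1, HSPB8, BAG3 and ZFAND2A were at 0.43, 0.32, 0.17, 0.41 and 0.30 in AH vs. CS and at 0.79, 1.00, 0.63, 0.68 and 1.00 in AH vs. RS, and HSPA1A at -0.36 in RS vs. CS. Without CS 2 and RS 5, a choice made after seeing the data, the same 5 were at 0.70, 0.062, 0.45, 0.53 and 1.18 in AH vs. CS, at 0.86, 0.49, 0.83, 0.75 and 1.48 in AH vs. RS, and HSPA1A at -0.16 in RS vs. CS. Without AH 1 as well, HSPA1A, HSPB8, BAG3 and ZFAND2A were at 0.53, 0.14, 0.063 and 0.30 in AH vs. CS, all 5 at 0.69, 0.32, 0.51, 0.28 and 0.60 in AH vs. RS, and HSPA1A at -0.16 in RS vs. CS. In that setting 1 of the 6 genes, HSPH1, was again lower in AH than in CS.

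Leaving out 1 cow gave ranges in AH vs. CS of -0.73 to 0.70 (HSPA1A), -1.23 to 0.062 (HSPH1), -1.31 to 0.45 (HSPB8), -1.80 to 0.53 (BAG3) and -2.48 to 1.18 (ZFAND2A), in AH vs. RS of -1.16 to 0.86, -0.89 to 0.49, -1.12 to 0.83, -1.40 to 0.75 and -1.81 to 1.48, and in RS vs. CS of -1.36 to 1.63, -1.52 to 0.73, -1.83 to 1.26, -2.09 to 1.46 and -3.08 to 2.11. In the AH comparisons the sign changed without CS 2 (AH vs. CS) or RS 5 (AH vs. RS). DNAJA1 kept its sign, at 1.18 to 1.97 in AH vs. RS. DNAJA1 minus HSPA1A, HSPH1, HSPB8, BAG3 and ZFAND2A ranged from 0.088 to 0.88, 0.59 to 1.38, 0.38 to 1.23, 0.31 to 1.29 and 0.23 to 1.36 in AH vs. CS, each lowest without CS 2 and highest without CS 1. DNAJA1 minus HSPH1 in RS vs. CS ranged from -0.75 to 0.042 and DNAJA1 minus ZFAND2A from -1.12 to 0.072, positive for both without CS 1 and for ZFAND2A also without RS 5. DNAJA1 minus HSPB8 in AH vs. RS, with an unadjusted p under 0.05, lost it without any of AH 2, AH 4, AH 5, AH 6, RS 1, RS 2, RS 3 and RS 5, at 0.97 to 1.36. The other differences in AH vs. RS came under it without AH 1 (BAG3, ZFAND2A), AH 3 (HSPH1, BAG3), RS 3 (HSPA1A) or RS 6 (HSPH1, BAG3), at 1.42 to 1.79.

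The median r of the 15 pairs, 0.61 over 16 cows, was 0.49 with diet means removed, 0.83 with all 18 cows and 0.56 to 0.66 without 1 cow. Counting error was small beside the spread between cows, so 6 cows a diet set the precision.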

Other observations

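TGM2 and Metazoa_SRP were chosen after their values were seen. TGM2, a transglutaminase that crosslinks proteins, ran against the heat shock genes from cow to cow. It was lowest in CS 2, at 12.4 CPM, followed by AH 2 at 16.7 CPM and RS 5 at 21.4 CPM, and highest in RS 4, at 152 CPM. In the 16 cows without CS 2 and RS 5 its Pearson's r was -0.88 with DNAJA1 (rho = -0.87), -0.77 with HSPA1A (rho = -0.71) and -0.77 with HSPB8 (rho = -0.82), and between -0.63 and -0.61 with the other members. The adjusted permutation p of r over all partner genes was 0.0664 for DNAJA1 and at least 0.365 for the others, so none passed the threshold. For DNAJA1 the unadjusted permutation p was 1e-05, the smallest that the resamples can give. Its adjusted p was therefore bounded by the number of resamples, and this test cannot settle whether it would pass with more. Without the 2 cows farthest from the median of DNAJA1, r with DNAJA1 was -0.86, and with the diet means removed -0.82.

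Metazoa_SRP, the annotated signal recognition particle RNA, had 66.8 CPM in CS 2, 25.6 CPM in AH 1, 17.5 CPM in AH 2, 5.86 CPM in AH 6 and 5.67 CPM in RS 5, and 0.274 to 1.83 CPM in the other cows. CS 2 and AH 1, its highest cows, were also the first and the third for ZFAND2A and BAG3, while AH 2 was the highest for DNAJA1. In the 16 cows its r was 0.52 (HSPH1) to 0.69 (HSPB8), and the adjusted permutation p of r was at least 0.123. Without the 2 cows farthest from the median of the respective member, r was 0.84 with HSPH1, 0.66 with HSPA1A, 0.60 with BAG3, 0.59 with DNAJA1, 0.35 with ZFAND2A and 0.18 with HSPB8. This RNA carries no poly(A) tail of its own. The labels name a total RNA kit, whereas the paper names an mRNA kit but also describes rRNA depletion of the total RNA. The part of the library kit in the level of Metazoa_SRP was not tested.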
